A study of Mus musculus with 12 samples.

Results

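The members described here were 7 genes of the circadian clock, chosen by symbol: *Arntl*, *Clock*, *Npas2*, *Nfil3*, *Cry1*, *Cry2* and *Rora*. All 7 were found in every tissue, among 22273 gene entries in gastrocnemius and 22252 in liver and in gonadal white adipose tissue (WAT). RNA-seq was run on these tissues from male C57BL/6J mice in which exon 3 of *Nr3c1*, the glucocorticoid receptor (GR) gene, was floxed. GRfl/fl mice carried no Cre, and GR-mKO mice carried *Acta1*-Cre, which is driven by the skeletal actin promoter and deletes the floxed exon in myofibers, so that liver, fat and the other cells of muscle keep the receptor. From 8 weeks of age, mice of both genotypes were given drinking water with 1% ethanol (vehicle), to which corticosterone (CORT) at 100 µg/mL was added for the treated groups, for 4 weeks. Tissue, genotype and treatment gave 12 groups of 1 library each, and each library was made from pooled RNA of 3 mice. There was therefore no replicate, no test across samples and no p-value, and the spread between mice or pools is unknown. The hour at which tissues were collected is not given in the sources used here, and no source used here says whether 1 set of mice gave all tissues of a group. Both GRfl/fl liver libraries bear sample numbers apart from those of all other libraries, and whether they were processed apart was not settled. If they were, genotype in liver cannot be told apart from that processing.

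The circadian clock is a feedback loop of transcription that runs in nearly every cell. BMAL1, encoded by *Arntl*, pairs with CLOCK or with its close relative NPAS2 and activates genes through E-box elements, among them the repressors *Per* and *Cry* and the output gene *Dbp*. In a side loop, ROR proteins (*Rora*) activate and REV-ERB proteins (*Nr1d1*, *Nr1d2*) repress genes that carry a ROR element, which include *Arntl*, *Npas2*, *Nfil3*, *Clock* and *Cry1*. NFIL3 (E4BP4) represses genes with a D-box, the element that DBP, TEF and HLF activate. In rodent tissues *Arntl*, *Npas2* and *Nfil3* therefore peak in an opposite part of the day to *Dbp* and *Nr1d1*. Corticosterone is itself rhythmic and can shift the phase of clocks outside the brain. With 1 collection per group, a different phase and a different mean level over the day cannot be told apart here.

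The elements of this loop are shown first. The 300 bases around each RefSeq start on GRCm38.p6, 250 before it and 50 from it on, were searched on both strands for 6 motifs. All 7 members matched. The sequences below were cut where annotated exons begin and run 5′ to 3′ on the strand of the gene, with motif letters in capitals. *Cry1* and *Cry2* are shown because the paralogs differed most plainly in their response, and *Arntl* because it had large responses in the 3 tissues. The *Cry1* stretch lies at chr10:85185065-85185304 (minus strand), that of *Cry2* at chr2:92434070-92434319 (minus strand) and that of *Arntl* at chr7:113207215-113207464 (plus strand).
Cry1: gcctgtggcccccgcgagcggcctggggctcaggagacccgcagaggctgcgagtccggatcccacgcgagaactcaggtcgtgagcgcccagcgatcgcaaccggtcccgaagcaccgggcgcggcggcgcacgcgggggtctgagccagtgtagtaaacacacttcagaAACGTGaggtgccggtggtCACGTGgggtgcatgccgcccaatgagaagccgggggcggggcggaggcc
Cry2: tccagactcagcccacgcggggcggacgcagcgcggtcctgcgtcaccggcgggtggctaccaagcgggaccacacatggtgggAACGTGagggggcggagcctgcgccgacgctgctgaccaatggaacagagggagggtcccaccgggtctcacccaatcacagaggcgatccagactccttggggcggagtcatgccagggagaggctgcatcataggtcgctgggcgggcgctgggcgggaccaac
Arntl: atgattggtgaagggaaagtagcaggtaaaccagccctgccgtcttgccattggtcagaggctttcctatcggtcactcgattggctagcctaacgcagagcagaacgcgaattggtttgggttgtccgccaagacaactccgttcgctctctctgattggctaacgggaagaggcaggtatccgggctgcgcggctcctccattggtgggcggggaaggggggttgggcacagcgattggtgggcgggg
The capitals in *Cry1* are an E-box, CACGTG, that begins 60 bases before the RefSeq start, and an E-box variant, CACGTT, read here from its other strand, that begins 79 bases before it. *Cry2* held the variant alone, 166 bases before its start. *Arntl* held none of the 6 motifs in the stretch shown.

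The ROR element TAGGTCA was found in *Arntl*, 30 bases after the second of its RefSeq starts, and in *Nfil3*, 12 bases before its start. Both copies lie in stretches that the GENCODE annotation counts as the first exon, and only the element with its flanks is shown, at chr7:113207531-113207557 (plus strand) for *Arntl* and at chr13:52981035-52981061 (minus strand) for *Nfil3*, where it reads from its other strand.
Arntl ROR element: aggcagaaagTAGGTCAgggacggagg
Nfil3 ROR element: cgctcggaacTGACCTActaacacaca
Of all 32851 promoter windows, 7.15% held CACGTG, 4.68% CACGTT and 2.61% TAGGTCA. The other motifs searched were TGGGTCA (3.98% of windows), the D-box TTANGTAA (2.32%) and the core ACANNNTGT of the palindrome bound by GR (6.85%), and no member held any of these in its windows. The windows of *Clock*, *Npas2* and *Rora* held none of the 6 motifs. A match of letters describes the sequence, and its absence says only that these letters are not in this window.

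Values are in counts-per-million (CPM), the expected count of a gene as a share of its library, and libraries held 19394572 to 20940660 expected counts. A gene counted as past 2-fold when the log2 change, with 0.5 CPM added on both sides, was at least 1 in size. Genes with a mean of at least 1 CPM over the 4 libraries of a tissue were kept, namely 12190 genes of gastrocnemius, 10943 of liver and 12817 of gonadal WAT, and all 7 members passed in each. Bracketed 95% intervals, apart from those of differences in response, are exact (Clopper-Pearson) ones for the ratio of the counts on the log2 scale. They were taken without the added 0.5 CPM, so they can lie further from 0 than the change beside them, and they cover counting error only. Each member's entry bore the same transcript identifier in the 3 tissues, and levels per kilobase use the length of that transcript.

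*Nr3c1*, the deleted gene, had 113 and 90.4 CPM in the gastrocnemius of GRfl/fl mice on vehicle and CORT, and 46.4 and 35.5 CPM in GR-mKO. In liver and gonadal WAT it had 45.2 to 158 CPM over the 8 libraries. In such bulk samples, fewer cells of a type and less RNA per cell cannot be told apart. *Fkbp5*, a direct target of GR, went from 61.9 to 355 CPM with CORT in GRfl/fl gastrocnemius and from 30.0 to 20.8 CPM in GR-mKO. In liver it went from 47.7 to 286 CPM in GRfl/fl and from 70.2 to 147 CPM in GR-mKO. In gonadal WAT it went from 141 to 427 CPM in GRfl/fl and, under 2-fold, from 206 to 264 CPM in GR-mKO. The markers of each tissue's own main cell type were high in all its libraries, at summed levels of at least 83161 CPM for muscle, 69731 CPM for hepatocytes and 13217 CPM for adipocytes.

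The members were highest together in 1 group. Of the 21 pairs of a member and a tissue, 20 had their highest level in the GRfl/fl library on CORT: 7 of 7 in gastrocnemius, 6 of 7 in liver and 7 of 7 in gonadal WAT. Of all genes kept, 23.8%, 27.9% and 29.5% were highest in that library. The exception was *Cry2* in liver, which was highest in GRfl/fl on vehicle. In gonadal WAT, *Clock* was highest in GRfl/fl on CORT by a margin within counting error, and with either scaling for library composition (TMM or median-of-ratios) it was highest in GR-mKO on CORT, which left 6 of 7.

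**Figure D1:**
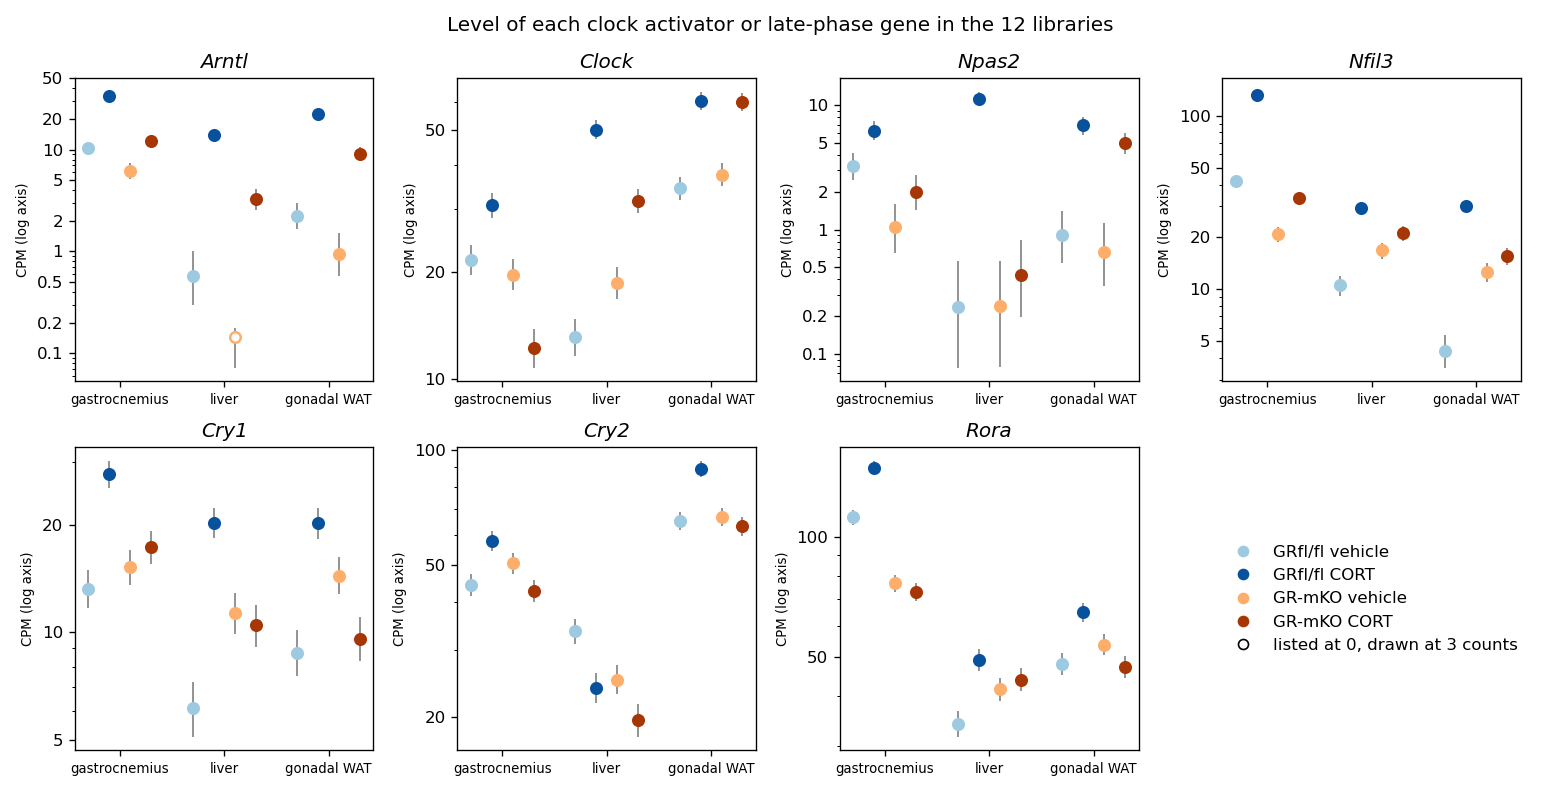
CPM of each member (log axis, with a range of its own in each panel) in the 12 libraries, grouped by tissue. Points are single libraries colored by genotype and treatment, and bars are 95% counting intervals. The dark blue point of GRfl/fl on CORT is the highest of its 4 in 20 of 21 sets, and the open point is *Arntl* in GR-mKO liver on vehicle, listed at 0 and drawn at the level of 3 counts, with its bar cut off below.

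Per kilobase of transcript, the mean over the 4 libraries put *Nfil3* highest in gastrocnemius (28.1 CPM per kb) and liver (9.59 CPM per kb) and *Cry2* highest in gonadal WAT (17.9 CPM per kb). *Npas2* was lowest in each tissue, at 0.744, 0.718 and 0.791 CPM per kb. Between neighbors in this order the ranges over the 4 libraries overlapped, apart from *Cry2* and *Nfil3* in gonadal WAT, where the lowest *Cry2* value, 15.9 CPM per kb, was above the highest *Nfil3* value, 14.9 CPM per kb.

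What CORT did in GRfl/fl mice was asked first. In gastrocnemius 3 of the 7 members rose past 2-fold, *Arntl*, *Nfil3* and *Cry1*, where 4.15% of all genes kept did. In liver 5 rose, *Arntl*, *Clock*, *Npas2*, *Nfil3* and *Cry1*, against 6.87% of genes. In gonadal WAT 4 rose, *Arntl*, *Npas2*, *Nfil3* and *Cry1*, against 6.4% of genes. No member fell past 2-fold, which is near the 5.91%, 6.89% and 8.96% of all genes kept that fell in the 3 tissues. The median change of the 7 was 0.85, 1.65 and 1.16 on the log2 scale, beside medians of −0.09, 0.01 and −0.06 over all genes kept. *Arntl*, *Nfil3* and *Cry1* thus rose past 2-fold in each of the 3 tissues, but with 2 CPM added in place of 0.5 *Cry1* in gastrocnemius was at 0.96, which left 2 of 7 there.

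In GR-mKO mice the same treatment moved fewer members past 2-fold, and fewer of all genes kept rose as well. These were 274 against 506 in gastrocnemius, 432 against 752 in liver and 534 against 820 in gonadal WAT. None of the 7 rose past 2-fold in gastrocnemius (2.25% of genes kept did), 1 did in liver (3.95% of genes), which was *Arntl*, and 2 did in gonadal WAT (4.17% of genes), which were *Arntl* and *Npas2*. No member fell past 2-fold, which is near the 5.97%, 3.77% and 6.52% of all genes kept that fell. The medians of the 7 were 0.18, 0.32 and 0.30 on the log2 scale, beside −0.09, 0.06 and −0.13 over all genes. With TMM or median-of-ratios scaling, *Arntl* in gastrocnemius also came past 2-fold, which made 1 of 7. Over all genes kept in GR-mKO, TMM moved the split of higher to lower calls from 274 and 728 to 331 and 551 in gastrocnemius, and from 534 and 836 to 663 and 659 in gonadal WAT, where median-of-ratios gave 667 and 651.

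**Figure D2:**
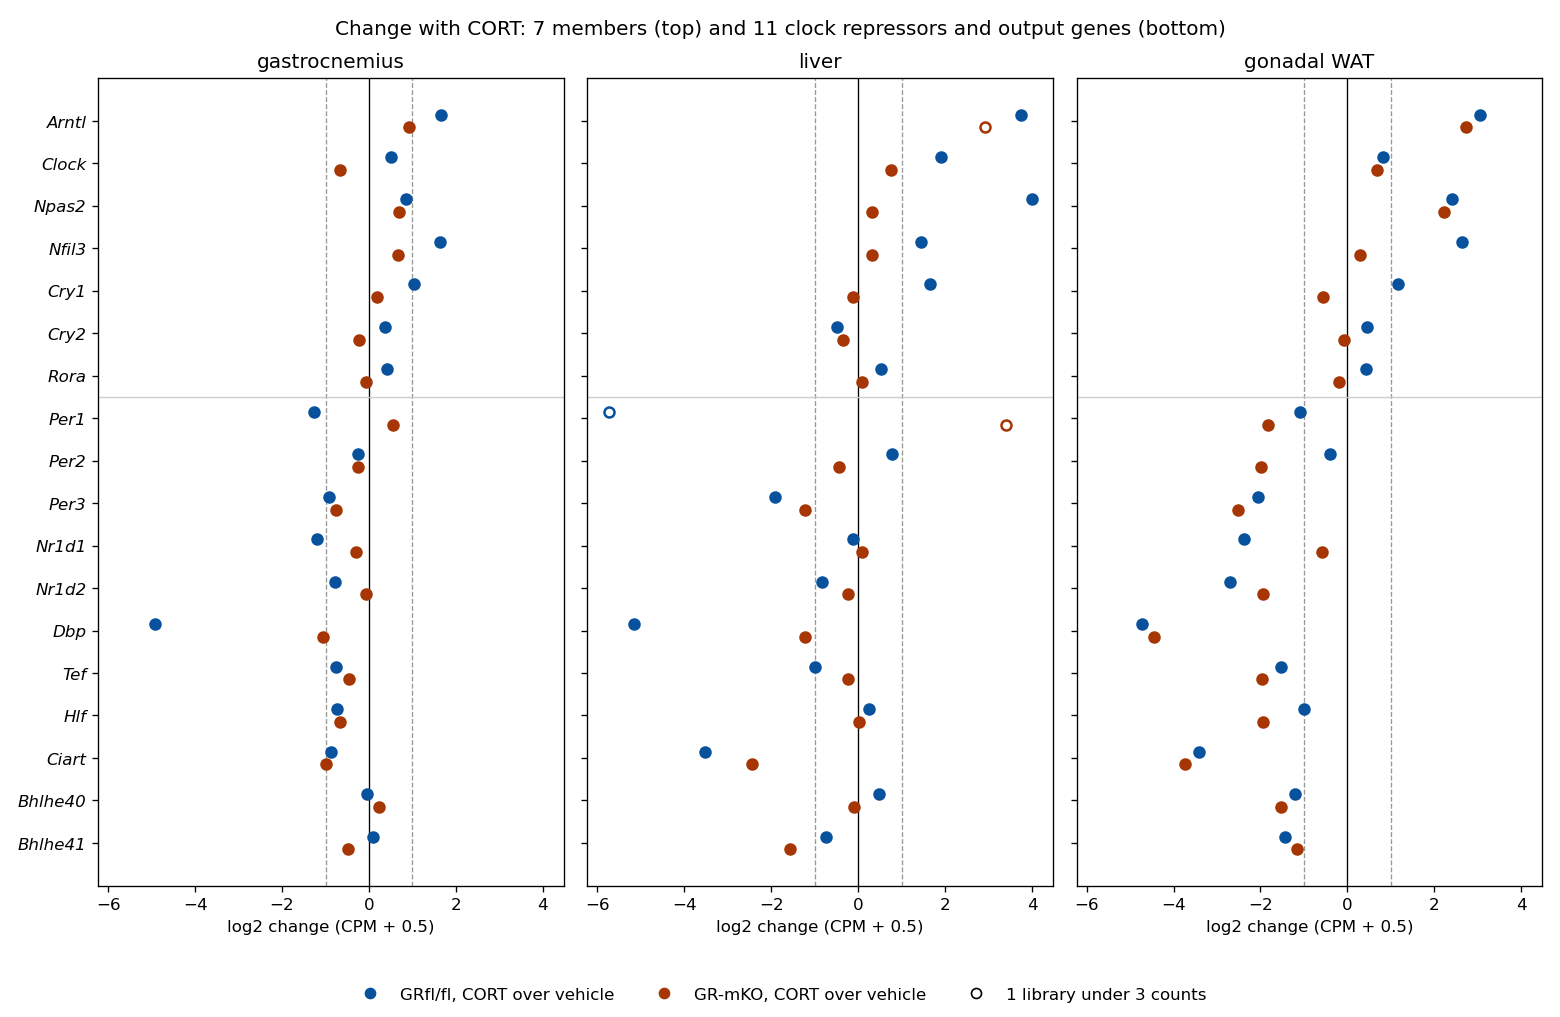
Log2 change with CORT (x axis, CPM + 0.5) of the 7 members (above the gray line) and of 11 clock repressors and output genes (below it), in GRfl/fl (blue) and GR-mKO (brown) mice; dashed lines mark 2-fold. The blue members lie to the right of 0 apart from *Cry2* in liver, and *Dbp* lies far to the left in blue in the 3 panels; open points have 1 library under 3 counts.

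*Arntl* encodes BMAL1, the partner of CLOCK and of NPAS2 (chr7:113207465-113314126, plus strand, 20 exons in the retained transcript). In gastrocnemius it had 10.4 CPM in GRfl/fl on vehicle, 34.0 on CORT, 6.21 in GR-mKO on vehicle and 12.2 on CORT. Both CORT libraries were above the vehicle library of their genotype, and GR-mKO on CORT was near GRfl/fl on vehicle. The change was 1.66 (1.48 to 1.94) for GRfl/fl and 0.92 (0.65 to 1.29) for GR-mKO on the log2 scale. In liver the 4 values were 0.573, 13.9, 0 and 3.28 CPM, and the first rests on 12 counts. *Arntl* was thus near the limit of detection in both liver libraries on vehicle and well above it in both on CORT. In GRfl/fl the rise was 24.3-fold by the ratio of CPM and 3.75 (3.78 to 5.57) on the log2 scale, the 49th largest of 10943 genes. In GR-mKO it was 22.7-fold with the floor of 3 counts in place of the listed 0, before counting error. The gene has 4 coding transcripts and its entry bears the identifier of 1. Whether the value is that transcript's or a sum over the gene was not settled, and how reads were shared out between transcripts was not tested. In the GR-mKO liver library on vehicle, *Per1* and *Fbxw11* were also listed at 0, beside 550 and 273 counts in GRfl/fl on vehicle. In gonadal WAT the 4 values were 2.25, 22.5, 0.939 and 9.11 CPM. Here it rose in both genotypes, by 3.06 (2.87 to 3.79) for GRfl/fl and 2.74 (2.56 to 4.01) for GR-mKO.

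*Clock* encodes the usual partner of BMAL1 (chr5:76209868-76304792, minus strand). In gastrocnemius it had 21.6 and 30.7 CPM in GRfl/fl on vehicle and CORT, and 19.6 and 12.2 CPM in GR-mKO. The genotypes moved in opposite directions there, by 0.50 (0.33 to 0.69) and −0.66 (−0.92 to −0.45), neither past 2-fold. In liver it had 13.1, 50.2, 18.6 and 31.7 CPM in the same order. It rose past 2-fold in GRfl/fl, by 1.90 (1.75 to 2.14), and the change was 0.75 (0.58 to 0.95) in GR-mKO. In gonadal WAT it had 34.3, 60.4, 37.5 and 60.1 CPM, and the change was 0.81 (0.68 to 0.95) for GRfl/fl and 0.67 (0.55 to 0.81) for GR-mKO. Both CORT libraries were equal there within counting error.

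*Npas2* encodes the relative of CLOCK that also pairs with BMAL1 (chr1:39193731-39363236, plus strand). In gastrocnemius it had 3.27 and 6.27 CPM in GRfl/fl and 1.05 and 2.02 CPM in GR-mKO, on vehicle and CORT. Both GR-mKO libraries were below both GRfl/fl libraries, and the change with CORT was 0.85 (0.49 to 1.40) and 0.70 (0.15 to 1.78). In liver it had 0.239 CPM (5 counts), 11.3, 0.243 and 0.432 CPM, so that GRfl/fl on CORT stood alone. The rise in GRfl/fl was 47.1-fold by the ratio of CPM and 3.99 (4.31 to 7.19) on the log2 scale, the 41st largest in liver, and in GR-mKO the change was 0.33 (−0.89 to 2.77), which counting error does not separate from 0. With 2 CPM added the rise in GRfl/fl was 2.57. In gonadal WAT it had 0.902, 6.89, 0.658 and 4.95 CPM. It rose in both genotypes there, by 2.40 (2.22 to 3.73) and 2.23 (2.07 to 3.87).

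*Nfil3* encodes the D-box repressor E4BP4, whose gene (chr13:52967209-52981073, minus strand) has 1 coding transcript, so its value does not depend on sharing reads between coding transcripts of the gene. In gastrocnemius it had 42.1 and 131 CPM in GRfl/fl and 20.7 and 33.4 CPM in GR-mKO. Both GR-mKO libraries were below both GRfl/fl libraries. The change was 1.63 (1.53 to 1.76) for GRfl/fl and 0.67 (0.51 to 0.87) for GR-mKO. In liver it had 10.5, 29.5, 16.7 and 21 CPM, a rise of 1.45 (1.27 to 1.72) in GRfl/fl beside a change of 0.32 (0.12 to 0.54) in GR-mKO. In gonadal WAT it had 4.41, 30.1, 12.5 and 15.5 CPM. The change there was 2.64 (2.45 to 3.11) for GRfl/fl and 0.30 (0.06 to 0.56) for GR-mKO, and the GR-mKO library on vehicle already stood above GRfl/fl on vehicle.

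*Cry1* and *Cry2* encode cryptochromes, repressors of CLOCK and BMAL1 (chr10:85131700-85185064 and chr2:92403646-92434043, both on the minus strand), and *Cry1* is the later of the pair in the day. *Cry1* had 13.2, 27.7, 15.2 and 17.3 CPM in gastrocnemius, 6.12, 20.2, 11.3 and 10.4 CPM in liver and 8.77, 20.2, 14.4 and 9.60 CPM in gonadal WAT. In each tissue GRfl/fl on CORT was highest. GRfl/fl on vehicle was lowest, but its counting interval overlapped that of the next library in gastrocnemius (GR-mKO on vehicle) and in gonadal WAT (GR-mKO on CORT). It rose in GRfl/fl by 1.04 (0.85 to 1.29), 1.65 (1.44 to 2.02) and 1.16 (0.94 to 1.47), and in GR-mKO the change was 0.18 (−0.04 to 0.41), −0.11 (−0.39 to 0.16) and −0.56 (−0.86 to −0.32). *Cry2* had 44.4, 57.8, 50.5 and 42.8 CPM in gastrocnemius, 33.6, 23.8, 25.0 and 19.7 CPM in liver and 65.1, 89.1, 66.8 and 63.0 CPM in gonadal WAT. No *Cry2* change was past 2-fold in any of the 12 comparisons. With CORT in GRfl/fl it was 0.38 (0.25 to 0.51), −0.49 (−0.66 to −0.32) and 0.45 (0.35 to 0.56), so that liver went the other way. The ratio of *Cry1* to *Cry2* per transcript length went with CORT from 0.392 to 0.630 in gastrocnemius, from 0.239 to 1.11 in liver and from 0.177 to 0.298 in gonadal WAT of GRfl/fl mice. In GR-mKO it went from 0.395 to 0.530, from 0.594 to 0.698 and from 0.284 to 0.2001.

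*Rora* encodes the activator at ROR elements (chr9:68653786-69388246, plus strand). It had 112, 149, 76.5 and 73.0 CPM in gastrocnemius, 34.1, 49.2, 41.6 and 43.9 CPM in liver and 48.1, 64.8, 53.8 and 47.2 CPM in gonadal WAT. With CORT in GRfl/fl the change was 0.41 (0.33 to 0.50), 0.52 (0.39 to 0.67) and 0.43 (0.31 to 0.55), a narrow range over the tissues and below 2-fold. In GR-mKO it was −0.07, 0.08 and −0.19, and the first turned to 0.09 with TMM scaling.

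Whether the response to CORT differed between genotypes was read from the difference of the log2 changes, GR-mKO minus GRfl/fl, with a 95% counting interval and no test. Each interval is centered on the difference with 0.5 CPM added, whereas its width comes from the counts without it. At low counts, as for *Npas2* in liver, the interval is therefore only a rough guide. In gastrocnemius it was below 0 beyond counting error for 6 members, most for *Clock*, −1.16 (−1.45 to −0.87), and *Nfil3*, −0.96 (−1.17 to −0.75). The exception was *Npas2*, −0.15 (−1.02 to 0.72). In liver it was −3.66 (−5.69 to −1.63) for *Npas2*, −1.75 (−2.15 to −1.36) for *Cry1*, −1.15 (−1.41 to −0.88) for *Clock*, −1.13 (−1.43 to −0.83) for *Nfil3* and −0.44 (−0.64 to −0.25) for *Rora*. For *Cry2* it was 0.15 (−0.10 to 0.40), and for *Arntl*, with a library at 0, no interval was computed. Gonadal WAT split the members. *Nfil3*, −2.34 (−2.75 to −1.94), *Cry1*, −1.72 (−2.09 to −1.35), *Rora*, −0.61 (−0.79 to −0.44), and *Cry2*, −0.53 (−0.68 to −0.38), had differences below 0 beyond counting error. For *Arntl*, −0.32 (−1.14 to 0.50), *Clock*, −0.13 (−0.32 to 0.05), and *Npas2*, −0.17 (−1.26 to 0.93), which encode BMAL1 and its partners, the intervals included 0. Those of *Arntl* and *Npas2* are wide, since their vehicle libraries held few counts. The size of these 2 differences also depends on the added value: with 2 CPM added they were −0.61 for *Arntl* and −0.23 for *Npas2*.

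Genotypes were next compared within a treatment. On vehicle 2 members were past 2-fold in gastrocnemius, both lower in GR-mKO: *Npas2* by −1.28 (−2.43 to −0.92) and *Nfil3* by −1.003 (−1.20 to −0.85). Of genes kept, 9.7% were past 2-fold in either direction and 3.98% were lower. In liver *Arntl* alone was past 2-fold, from 12 counts to 0 (4.21% of genes in either direction, 2.04% lower). With the floor of 3 counts in place of the 0 it was 3.95-fold lower, before counting error. In gonadal WAT *Nfil3* alone was past 2-fold (3.5% of genes in either direction, 1.69% higher), and it was higher in GR-mKO, by 1.41 (1.15 to 1.87). With 2 CPM added, *Npas2* (−0.79) and *Nfil3* (−0.96) in gastrocnemius and *Arntl* in liver (−0.36) were no longer past 2-fold. The median of the 7 members was −0.55, 0.28 and 0.13, beside 0.08, 0.03 and 0.03 over all genes.

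On CORT the members had lower levels in GR-mKO than in GRfl/fl in each tissue beyond counting error, apart from *Clock* in gonadal WAT. In gastrocnemius 5 of 7 were past 2-fold lower (6% of genes kept were): *Nfil3*, −1.96 (−2.10 to −1.85), *Arntl*, −1.44 (−1.70 to −1.27), *Npas2*, −1.43 (−2.19 to −1.12), *Clock*, −1.29 (−1.55 to −1.11), and *Rora*, −1.03 (−1.12 to −0.94). In liver 2 of 7 were (3.13% of genes): *Npas2*, −3.66 (−5.84 to −3.75), and *Arntl*, −1.93 (−2.49 to −1.70). In gonadal WAT 2 of 7 were (1.99% of genes): *Arntl*, −1.26 (−1.56 to −1.05), and *Cry1*, −1.04 (−1.33 to −0.82). With 2 CPM added, *Npas2* in liver was at −2.45 and *Cry1* in gonadal WAT, at −0.94, was no longer past 2-fold. The medians were −1.29, −0.65 and −0.50, beside 0.04, 0.08 and −0.04 over all genes. *Clock* in gonadal WAT, −0.01 (−0.12 to 0.11), was equal between genotypes within counting error, and its sign turned with TMM or median-of-ratios scaling. These comparisons share the GRfl/fl library on CORT with the response to CORT in GRfl/fl, so they are not separate evidence of it.

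**Figure D3:**
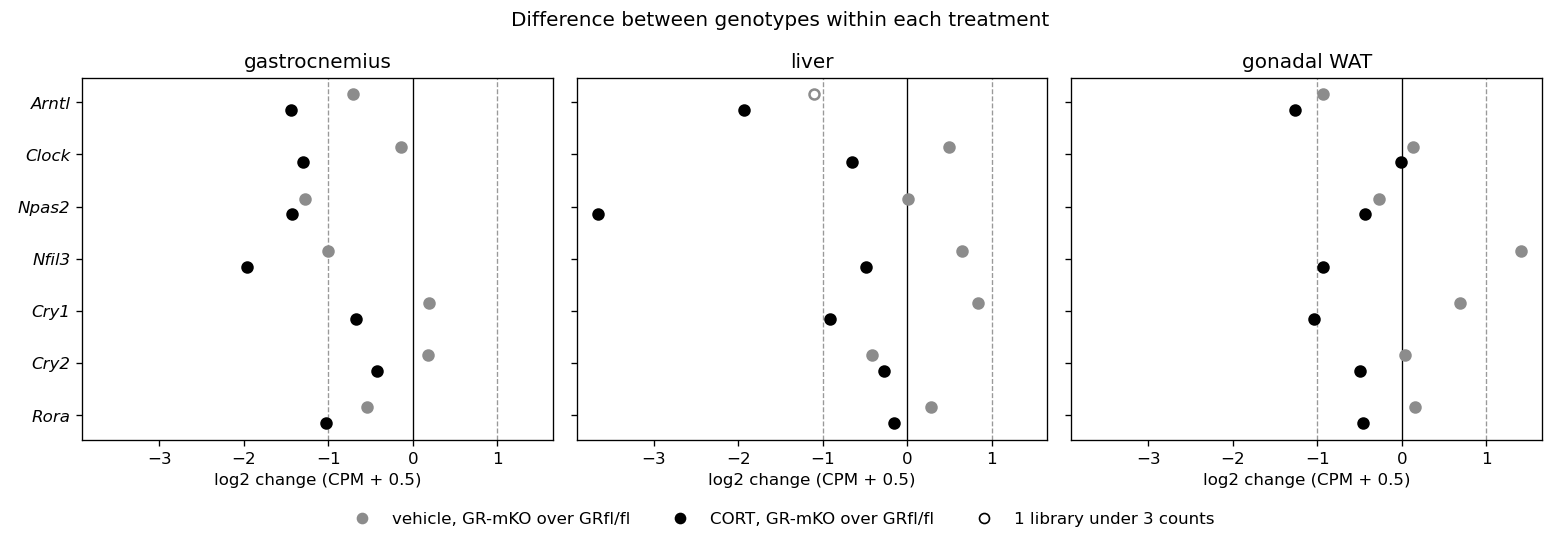
Log2 difference between genotypes, GR-mKO over GRfl/fl (x axis, CPM + 0.5), on vehicle (gray) and on CORT (black) for the 7 members in each tissue; dashed lines mark 2-fold, and the open point has 1 library under 3 counts. The black points lie at or left of 0 in the 3 panels, whereas the gray points lie on both sides.

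Markers of other cell types also moved. In gastrocnemius, the 6 hepatocyte markers summed, on vehicle and CORT, to 6.25 and 8.61 CPM for GRfl/fl mice and 75.2 and 248 CPM for GR-mKO mice. The last is 0.189% of their level in the matching liver library, and that share of the *Arntl* level in liver is 0.00620 CPM beside the 12.2 CPM measured. The 6 adipocyte markers there summed to 102, 316, 90.4 and 209 CPM. The second is 2.23% of their level in the matching gonadal WAT library, and that share of the level in fat is 0.501 CPM for *Arntl* and 0.672 CPM for *Nfil3*, beside 34.0 and 131 CPM measured. The 5 macrophage markers summed to 106, 111, 381 and 143 CPM in gastrocnemius, to 127, 42.0, 100.2 and 63.5 CPM in liver and to 688, 1732, 894 and 1668 CPM in gonadal WAT. The summed level of 5 genes of B cells and antigen presentation was lower on CORT in both genotypes in each tissue, in gonadal WAT at 947, 117, 1143 and 230 CPM, and the 4 endothelial markers there were at 548, 215, 507 and 287 CPM. Between the CORT libraries, the 4 globin genes that mark red blood cells were 2-fold or more higher in GR-mKO in the 3 tissues, at summed levels of 767 against 2462 CPM in gastrocnemius, 372 against 1062 CPM in liver and 2140 against 5637 CPM in gonadal WAT. The part of macrophages, lymphocytes, endothelium and blood in the members' levels was not tested.

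The clock genes on the other side of the loop are given for context. The list held 11 repressors and output genes, *Per1*, *Per2*, *Per3*, *Nr1d1*, *Nr1d2*, *Dbp*, *Tef*, *Hlf*, *Ciart*, *Bhlhe40* and *Bhlhe41*, and all 11 were kept in each tissue. With CORT in GRfl/fl, 3 fell past 2-fold in gastrocnemius (*Per1*, *Nr1d1* and *Dbp*), 4 in liver (*Per1*, *Per3*, *Dbp* and *Ciart*) and 9 in gonadal WAT, and none rose. Of all genes kept, 5.91%, 6.89% and 8.96% fell past 2-fold, and 4.15%, 6.87% and 6.4% rose. The liver call of *Per1* rests on a library in which it was listed at 0. In GR-mKO, 1 fell in gastrocnemius (*Dbp*), 4 fell and 1 rose in liver (the last *Per1*, from a listed 0 to 4.82 CPM) and 10 fell in gonadal WAT, where 5.97%, 3.77% and 6.52% of all genes fell in the 3 tissues. In GR-mKO liver 3.95% of all genes rose. The median of the list was −0.78, −0.84 and −1.53 in GRfl/fl and −0.47, −0.24 and −1.95 in GR-mKO. With TMM scaling *Dbp* in GR-mKO gastrocnemius was no longer past 2-fold, which left 0 of 11, and 1 more gene came past 2-fold in GRfl/fl liver, which made 5.

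*Dbp*, the D-box activator that BMAL1 drives and NFIL3 opposes, went from 116 to 3.37 CPM in gastrocnemius, from 124 to 2.97 CPM in liver and from 246 to 8.75 CPM in gonadal WAT of GRfl/fl mice on CORT. In GR-mKO it went from 150 to 71.3, from 74.1 to 31.6 and from 195 to 8.40 CPM. The ratio of *Arntl* to *Dbp* within a library does not depend on scaling between libraries. Per transcript length it was 0.0568 on vehicle and 6.38 on CORT in GRfl/fl gastrocnemius, and 0.0263 and 0.108 in GR-mKO. In liver it was 0.00292 and 2.96 in GRfl/fl, and on CORT in GR-mKO 0.0656. In gonadal WAT it was 0.00580 and 1.62 in GRfl/fl and 0.00305 and 0.685 in GR-mKO. *Arntl* thus stood above *Dbp* per length in the 3 GRfl/fl libraries on CORT and in no other library, and the GR-mKO library on CORT nearest to it was that of gonadal WAT.

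**Figure D4:**
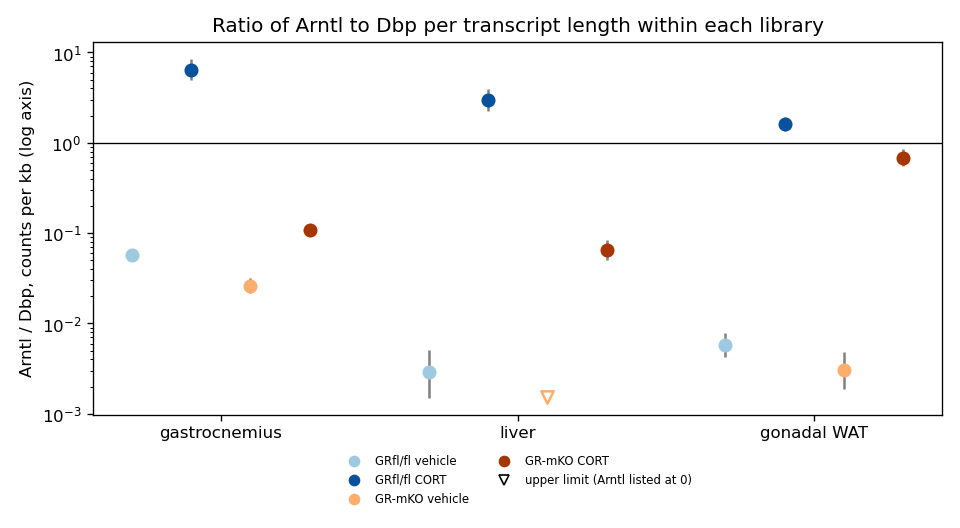
Ratio of *Arntl* to *Dbp*, each per kilobase of transcript (log axis), in the 12 libraries; bars are 95% counting intervals, the line marks equal levels and the open triangle is an upper limit where *Arntl* was listed at 0. The 3 libraries of GRfl/fl on CORT lie above the line, at 6.38, 2.96 and 1.62, and the GR-mKO libraries on CORT lie at 0.108, 0.0656 and 0.685.

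Further output genes were counted from a list as well. With CORT, of 6 output genes (*Wee1*, *Nampt*, *Usp2*, *Noct*, *Por*, *Cdkn1a*), all kept, 1 rose in each tissue of GRfl/fl mice (4.15%, 6.87% and 6.4% of all genes rose), and it was *Cdkn1a*, the inhibitor of cyclin-dependent kinases: from 37.3 to 188 CPM in gastrocnemius, from 1.12 to 41.0 CPM in liver and from 27.1 to 345 CPM in gonadal WAT. In liver *Usp2*, a deubiquitinase gene, fell from 48.2 to 6.09 CPM and *Wee1*, a cell-cycle kinase gene, from 17.3 to 6.10 CPM. Of all genes kept, 6.89% fell past 2-fold in that comparison. In GR-mKO none of the 6 passed 2-fold in gastrocnemius, where 8.22% of all genes kept did in either direction. In liver *Cdkn1a* rose from 4.38 to 10.1 CPM and *Usp2* fell from 56.1 to 25.8 CPM (3.95% of genes rose, 3.77% fell). In gonadal WAT *Cdkn1a* rose from 34.4 to 301 CPM (4.17% of genes rose). There *Wee1* fell from 23.9 to 11.1 CPM and *Por*, the gene of cytochrome P450 reductase, from 811 to 402 CPM (6.52% of genes fell).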

How the data were processed

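RNA was pooled by the authors from 3 mice per group after cutoffs on purity and integrity, and 100-base paired reads were sequenced. Per the submitters' notes and the paper, reads were quantified with Salmon 1.2.1 on GENCODE M20 protein-coding transcripts (GRCm38) and imported with tximport in R 3.5.0 by length-scaled TPM. The deposited values are expected counts (estimated counts), not scaled between libraries. Of several entries under 1 symbol the authors retained that of highest total, and each bears 1 transcript identifier. The paper also names the gene-level summary of tximport, so whether a value is a gene sum or that of the named transcript was not settled.

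Each value was divided by its library total (19394572 to 20940660) to give CPM. Log2 changes were taken with 0.5 CPM added, among genes with a mean of at least 1 CPM per tissue, and called past 2-fold. The floor was 3 counts (0.143 to 0.155 CPM). Intervals are 95% Clopper-Pearson intervals on rounded counts. Those of differences in response were taken by the delta method. Intervals and floors cover counting error only. NOISeq, the authors' test for data without replicates, was rewritten and run as an alternative with simulated technical samples (20% of depth, 5 samples, variability 0.02, threshold 0.9). Other alternatives were edgeR 4.0.16 TMM factors, DESeq2 1.42.0 median-of-ratios size factors, 2 CPM added, and other filters. Scripts (Python 3.11.15, R 4.3.3) were tested on simulated data. Positions came from GENCODE M21 (GRCm38) and promoters from RefSeq (GRCm38.p6). Members, lists and tests were chosen with earlier results of these data known. All members were named, and listed genes where a value stood out. Some listed genes are not reported here.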

Additional observations from a re-analysis of the deposited data

Results flagged for a closer look

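On vehicle, *Nfil3* differed between genotypes in opposite directions in 2 tissues. In gastrocnemius GRfl/fl had 42.1 CPM and GR-mKO 20.7 CPM, a log2 change of −1.003. In gonadal WAT GRfl/fl had 4.41 CPM and GR-mKO 12.5 CPM, a log2 change of 1.41. Each group is 1 library, and the difference between the tissues was not tested. In gastrocnemius the change lies just past 2-fold and came under it with 2 CPM added.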

How the results depend on the processing

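No paired analysis was possible because each group has 1 library and the labels give no replicate numbers, and for the same reason no library could be left out. Among the members no call reversed, but 4 changes under 2-fold turned sign with scaling. Between genotypes these were *Clock* in gonadal WAT on CORT (−0.01, and 0.03 with TMM) and *Npas2* in liver on vehicle (0.007, and −0.002 with median-of-ratios). With CORT in GR-mKO they were *Rora* in gastrocnemius (−0.07, and 0.09 with TMM) and *Cry2* in gonadal WAT (−0.08, and 0.04 with TMM). TMM and median-of-ratios scaling moved the median of all genes by over 0.1 with CORT in GR-mKO, by 0.14 and 0.13 in gastrocnemius and by 0.12 and 0.13 in gonadal WAT, and median-of-ratios moved it by 0.10 in GRfl/fl gastrocnemius. The number of members past 2-fold with CORT in GR-mKO gastrocnemius went from 0 to 1 with both. How often a member was highest in GRfl/fl on CORT was also recomputed with both scalings, an alternative chosen after seeing the data, and the count per tissue stayed within 1 of 7. With 2 CPM added, the members past 2-fold between genotypes went from 2 to 0 in gastrocnemius and from 1 to 0 in liver on vehicle, and from 2 to 1 in gonadal WAT on CORT. With CORT in GRfl/fl gastrocnemius they went from 3 to 2, without *Cry1*. By construction, since the added value exceeds the level of 1 library, changes shrank: in liver the rise in GRfl/fl from 3.75 to 2.63 for *Arntl* and from 3.99 to 2.57 for *Npas2*, and for *Npas2* the genotype change on CORT from −3.66 to −2.45 and the difference of response from −3.66 to −2.45. In GR-mKO the rise of *Arntl* in liver went from 2.92 to 1.40 and that of *Npas2* in gonadal WAT from 2.23 to 1.39. In gonadal WAT the rise of *Arntl* also shrank, from 3.06 to 2.52 in GRfl/fl and from 2.74 to 1.92 in GR-mKO. That of *Npas2* in GRfl/fl went there from 2.40 to 1.62. The 20 differences of response that could be computed moved by less than their counting error under each setting. The liver difference of *Arntl*, with a library at 0, was left out.

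NOISeq gave 1 member between genotypes on vehicle in gastrocnemius (2 by fold), 0 in liver (1 by fold) and 0 in gonadal WAT (1 by fold). On CORT it gave 4 in gastrocnemius (5 by fold, *Npas2* not called) and 1 each in liver and gonadal WAT (2 by fold in each). With CORT in GRfl/fl it gave 3 in gastrocnemius as by fold, 4 in liver (5 by fold) and 3 in gonadal WAT (4 by fold, *Npas2* not called). With CORT in GR-mKO it gave 0 in liver (1 by fold) and 1 in gonadal WAT (2 by fold). It gave no probability for *Arntl* in liver, which was not tested there because of its library at 0.

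Over all genes, counts past 2-fold are given in the order CORT in GRfl/fl, CORT in GR-mKO, genotype on vehicle, genotype on CORT. With 2 CPM added they were 753, 552, 712 and 844 in gastrocnemius and 968, 541, 269 and 396 in liver. In gonadal WAT the last 3 were 833, 273 and 272. NOISeq called 470, 272, 439 and 534 genes in gastrocnemius, 622, 280, 71 and 180 in liver and 1099, 620, 113 and 91 in gonadal WAT. Between genotypes on vehicle, a filter above 0 in all 4 libraries gave 287 in liver and no filter gave 708 in gonadal WAT. Depth limits the liver values of *Npas2*, of 5 counts in GRfl/fl on vehicle.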

Other observations

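Across the 12 libraries, with the mean of each tissue taken out of log2 CPM, the genes whose levels ran most like *Arntl* among 4625 genes compared were *Selenoi* (Pearson r 0.94), *AU022252* (0.94) and *Hivep1* (0.93). Those that ran most against it were *Hmgn1* (−0.96), *Tmem222* (−0.96) and *Fam76a* (−0.95). Among the members, *Npas2* had r 0.90 with *Arntl* and *Clock* 0.81, whereas *Cry2* had 0.07. These values are descriptions. The 12 points share treatment and genotype, and with 12 points and 4625 genes, high values at both ends come easily.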
